A study of Mus musculus and Mus musculus musculus x Mus musculus castaneus with 8 samples.

Results

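Open chromatin was examined at 5 loci of mesenchymal cells, those of the collagen genes Col1a1 and Col1a2 and of the transcription factor genes Twist1, Prrx1 and Snai2. A fixed window was taken around each gene in mm9 coordinates, and every peak overlapping a window was a member, whatever its width or the list it came from. The windows lie on chromosome 11 from 94700000 to 94915000 (Col1a1, 215 kb), chromosome 6 from 4400000 to 4540000 (Col1a2, 140 kb), chromosome 12 from 34540000 to 34745000 (Twist1, 205 kb), chromosome 1 from 165075000 to 165345000 (Prrx1, 270 kb) and chromosome 16 from 14605000 to 14810000 (Snai2, 205 kb). Of the 151729 peaks in 5 peak lists, 92 were in these windows.

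ATAC-seq uses a transposase that inserts adaptors into accessible DNA, so that open sites yield peaks of reads. The series holds 8 libraries of 5 conditions, with 1 peak list for each condition. Donor MEFs, fibroblasts cultured from embryos of a cross between Musculus musculus (as labelled) and Mus musculus castaneus and permeabilized for nuclear transfer (NT), gave 1 library of 3000 cells. The same cells 48 h after NT into Xenopus oocytes gave 2 libraries of 3000 cells, and 1 further library came from NT oocytes that overexpressed Toca1 (Fnbp1l), a factor known to enhance actin polymerization. C2C12, a myoblast line of strain C3h, was assayed in 2 libraries of 50000 cells and 2 of 1000 cells. The lists record which sites passed a false discovery rate of 0.01, without a height or a number of reads, so the depth is unknown and a missing peak means only that no peak was called. With a single list for each condition there is no measure of replicate error, and no test between conditions was possible. Condition, library and depth cannot be told apart.

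Col1a1 and Col1a2 encode the chains of type I collagen, the main fibre of connective tissue, which fibroblasts secrete. Twist1 is a basic helix-loop-helix factor, Prrx1 a homeodomain factor of limb and craniofacial mesenchyme, and Snai2 (Slug) a zinc-finger repressor, and Twist1 and Snai2 are known for their part in the epithelial-to-mesenchymal transition. Genes active in a cell type usually have an open promoter and open distal elements around it. In the GRCm38.p6 gene order, the nearest protein-coding genes on either side are Gm11544 and Sgca for Col1a1, Bet1 and Casd1 for Col1a2, Ferd3l and Hdac9 for Twist1, Mroh9 and Gorab for Prrx1, and LOC115488637 and Efcab1 for Snai2. Gene positions in mm9 were not used, so a peak is described here as lying in the window of a gene, not as its promoter or enhancer. A window may hold sites of neighbouring genes, so its density is not that of the named gene alone.

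RefSeq promoter sequences of GRCm38.p6, from 250 bases before to 50 bases after the annotated start, were matched for 3 of the 5 genes and show how the start regions of a collagen gene and of 2 of the factor genes differ in composition. They are written 5′ to 3′ on the strand of the gene, with each CCAAT or GGGCGG, on either strand, in capitals. Their coordinates belong to GRCm38.p6 and cannot be set beside the mm9 positions of the peaks. They are Col1a2 (chr6:4505368-4505667, + strand), Twist1 (chr12:33957421-33957720, + strand) and Prrx1 (chr1:163313601-163313900, - strand).
Col1a2: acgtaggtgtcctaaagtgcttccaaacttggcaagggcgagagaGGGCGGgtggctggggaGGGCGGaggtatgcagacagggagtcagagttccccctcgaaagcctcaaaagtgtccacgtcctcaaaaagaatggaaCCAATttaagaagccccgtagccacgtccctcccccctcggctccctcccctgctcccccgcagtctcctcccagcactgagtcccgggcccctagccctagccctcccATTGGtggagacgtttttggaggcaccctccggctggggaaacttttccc
Twist1: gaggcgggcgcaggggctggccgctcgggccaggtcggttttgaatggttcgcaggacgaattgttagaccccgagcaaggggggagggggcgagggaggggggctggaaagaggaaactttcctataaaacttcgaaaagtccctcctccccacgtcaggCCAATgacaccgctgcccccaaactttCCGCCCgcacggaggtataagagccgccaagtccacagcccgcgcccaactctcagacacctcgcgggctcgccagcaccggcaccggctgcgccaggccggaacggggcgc
Prrx1: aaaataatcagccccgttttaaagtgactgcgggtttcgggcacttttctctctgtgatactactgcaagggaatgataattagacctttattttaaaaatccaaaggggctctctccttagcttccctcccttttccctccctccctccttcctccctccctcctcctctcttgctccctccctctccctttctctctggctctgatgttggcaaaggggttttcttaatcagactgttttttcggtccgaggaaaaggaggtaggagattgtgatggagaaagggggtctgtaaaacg

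The Twist1 promoter was the richest in CpG, with a ratio of observed to expected CpG of 0.827 and a GC content of 66.0%. The Col1a2 promoter had a ratio of 0.470 and 61.0% GC, and the Prrx1 promoter had 0.360 and 47.7%. Over the 32851 promoters of the table the medians were 0.384 and 52.7%, so the Prrx1 start lay close to the typical promoter and that of Twist1 above 81.3% of them in its CpG ratio. Col1a2 held 2 matches to CCAAT, the letters bound by NF-Y, and 2 to GGGCGG, the letters bound by Sp1. Twist1 held 1 of each, and Prrx1 neither. CCAAT was present in 37.4% and GGGCGG in 35.7% of all promoters. TATAAA was found once, in Twist1 (13.6% of all promoters), and TGANTCA, the AP-1 letters, in none of the 3 (7.81%). CANNTG, the E-box letters that Twist1 and Snai2 proteins bind, was also in none of the 3, against 72.3% of all promoters. All motifs were read on both strands, and a match or its absence describes these letters only.

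Donor MEFs and C2C12 cells were densely open at these loci, and the lists after NT were not. The donor MEF list and the 50000-cell C2C12 list each held 35 peaks in the 1035 kb of the windows, the list after NT held 2, the Toca1 list 7 and the 1000-cell C2C12 list 13. For donor MEFs this was 33.8 peaks per Mb (exact 95% Poisson interval 23.6 to 47.0), against 15.0 per Mb over the whole list. For C2C12 from 50000 cells it was 33.8 per Mb against 20.0. The somatic windows were thus denser than their lists by 2.25 times in donor MEFs (interval 1.57 to 3.13) and by 1.69 times in C2C12 (1.18 to 2.35). After NT the density was 1.93 per Mb (0.234 to 6.98) against 3.13 over the list, and with Toca1 it was 6.76 (2.72 to 13.9) against 6.22. In both lists the density of the list lay inside the interval of the windows. The 1000-cell C2C12 list had 12.6 per Mb (6.69 to 21.5) against 13.2, so it showed no excess at these loci. Intervals cover counting error only, treat neighbouring peaks as independent, and do not describe variation between experiments. Rates over a list use 2638 Mb, the sum of the largest peak ends of its chromosomes in the 5 lists. They are not matched to the windows for gene content, so an excess cannot be assigned to mesenchymal genes.

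**Figure D1:**
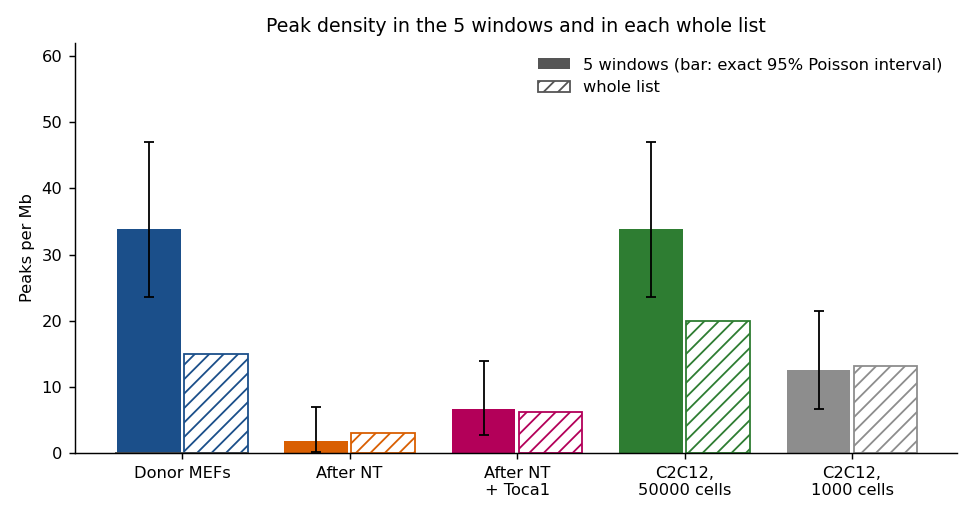
Peaks per Mb (y axis) in the 5 windows together (filled bars, with exact 95% Poisson intervals) and over each whole list (hatched bars), for the 5 lists. Donor MEFs (33.8 against 15.0) and C2C12 from 50000 cells (33.8 against 20.0) exceed their own list by more than the interval, and in the other 3 lists the rate of the list lies inside it.

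The collagen windows had the highest donor densities, with 13 donor peaks at Col1a1 (60.5 per Mb, interval 32.2 to 103) and 7 at Col1a2 (50.0 per Mb, 20.1 to 103). Prrx1 followed with 10 donor peaks (37.0 per Mb, 17.8 to 68.1), and Twist1 (3 peaks, 14.6 per Mb, 3.02 to 42.8) and Snai2 (2 peaks, 9.76 per Mb, 1.18 to 35.2) were near the rate of the list. The intervals of all 5 windows overlapped each other. Such an overlap is not a test of a difference, and none was made between the loci, so the order describes these counts only. The C2C12 list from 50000 cells had 14, 8, 8, 2 and 3 peaks at Col1a1, Col1a2, Prrx1, Twist1 and Snai2, with the collagen windows again on top. Its densities at Twist1 and Snai2 were 9.76 and 14.6 per Mb, against 20.0 over the whole C2C12 list. The Col1a1 window alone held 13 of the 35 donor peaks, both peaks after NT and 5 of the 7 Toca1 peaks. Without it, the ratio to the density of the list was 1.79 for the donor windows, 1.28 for the C2C12 windows and 0.392 for the Toca1 windows. No interval was computed for these ratios, so whether an excess remained without Col1a1 was not tested.

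**Figure D2:**
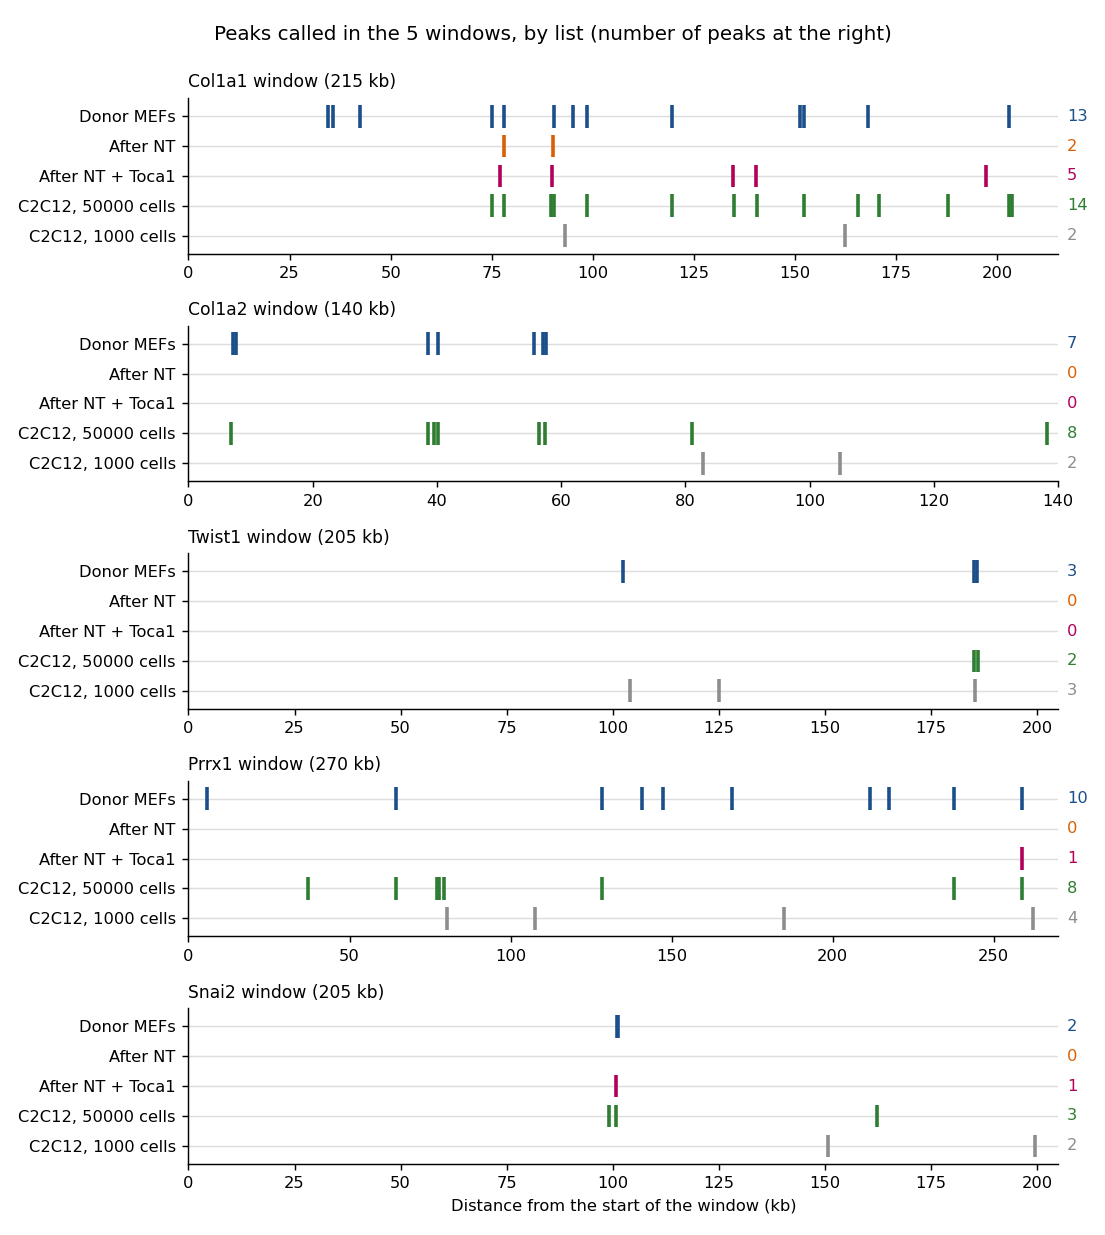
Position of each peak centre (ticks) along the 5 windows in kb from the window start (x axis), with a row for each list and the number of peaks at the right. Tick width is not to scale. The list after NT has ticks in the Col1a1 window only, and the Toca1 list in those of Col1a1, Prrx1 and Snai2.

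Donor sites at these loci were mostly absent from both NT lists. Of the 35 donor peaks, 2 (5.71%, exact binomial 95% interval 0.700% to 19.2%) were overlapped by a peak after NT, against 9.73% of all donor peaks. A Toca1 peak overlapped 3 (8.57%, 1.80% to 23.1%), against 19.7% of all donor peaks. Both shares were below those of the list, but for each the share of the list lay inside the interval. No donor peak was overlapped in both NT lists (interval 0% to 10.0%, against 7.08% of the donor list), and 30 of the 35 (85.7%, 69.7% to 95.2%) were in neither, against 77.7% of the donor list. The 5 donor peaks found again were all among the 20 that C2C12 from 50000 cells also had, and none was among the 15 that C2C12 lacked. Over the whole donor list 91.0% of the peaks found again were in C2C12, and 5.70% of those that C2C12 lacked were found again, so both counts were near the background. Donor peaks shared with C2C12 made up 57.1% of the windows (39.4% to 73.7%), against 64.6% of the list. In the other direction 18 of the 35 C2C12 peaks (51.4%) overlapped a donor peak, against 48.4% of the C2C12 list. A peak after NT overlapped 2 of them (7.86% of the list), and a Toca1 peak 4 (16.5% of the list).

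The donor peaks found again were not the widest. Those overlapped after NT were 330 and 341 bp wide and those overlapped with Toca1 were 239, 389 and 681 bp wide, while the 30 others had a median of 411 bp and a range of 167 to 814 bp. Over the whole donor list the peaks overlapped after NT were wide, with a median of 548 bp against 399 bp for all. With a limit of 600 bp, chosen after the widths had been seen, the windows held 7 wide donor peaks. None of these was overlapped after NT (exact upper bound 41.0%), against 22.0% of the 7023 donor peaks of that width in the list, and 1 was overlapped with Toca1 (14.3%, 0.361% to 57.9%), against 40.2%. Both shares of the list lay inside the intervals of the windows, so no deficit was shown.

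**Figure D3:**
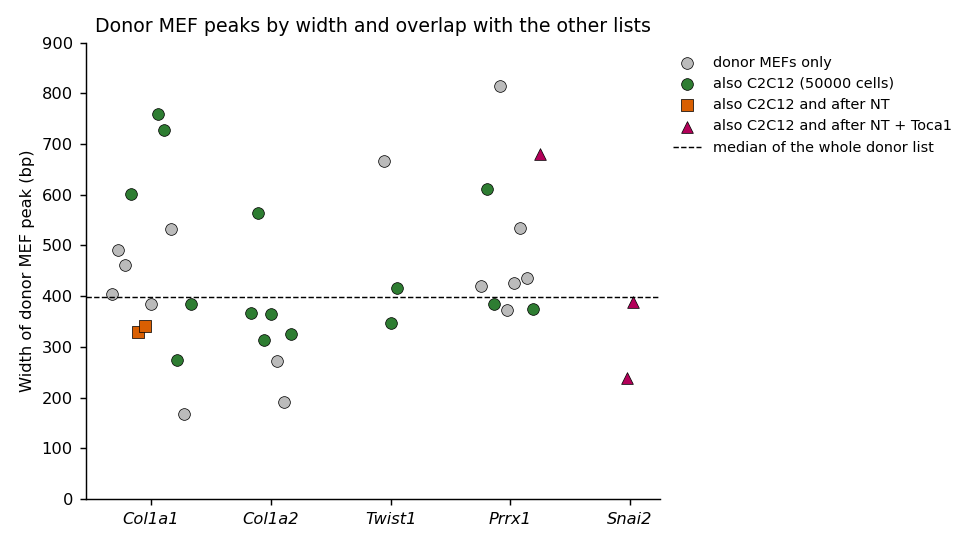
Width in bp (y axis) of each of the 35 donor MEF peaks, by window (x axis, peaks ordered along the chromosome), marked by the other lists that overlap it. The dashed line is the median of the whole donor list (399 bp). The 2 peaks overlapped after NT (squares, Col1a1) lie below the line, and the widest peak (814 bp, Prrx1) is in donor MEFs only.

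The Col1a1 window was the only one of the 5 with peaks after NT. The first lay from 94777877 to 94778099 (223 bp), inside a donor peak from 94777839 to 94778168 (330 bp), and a C2C12 peak from 94777832 to 94778130 covered the same place. The second lay from 94789935 to 94790361 (427 bp) and shared 236 bp with a donor peak from 94790126 to 94790466, which a C2C12 peak from 94790065 to 94790527 enclosed. At the second site the centre of the peak after NT was 148 bp to the left of the donor centre, whereas the C2C12 centre was at the donor centre. Both peaks after NT thus stood on sites open in both somatic cell types (46.9% of all peaks after NT overlapped a donor peak and 50.6% a C2C12 peak), and 11835 bp separated them.

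With Toca1 the Col1a1 window held 5 peaks, and none overlapped a donor peak or a peak after NT. A peak from 94776642 to 94777228 (587 bp) ended 610 bp before the first donor site just described. A peak of 173 bp, from 94789758 to 94789930, lay 4 bp from the second peak after NT and 195 bp from its donor peak. The Toca1 list thus had a call to the left of each peak after NT, at 648 and 4 bp. How often such neighbouring calls occur over the whole lists was not computed. Peaks from 94834545 to 94834935 and from 94840239 to 94840577 overlapped C2C12 peaks (from 94834724 to 94834978 and from 94840315 to 94840652) and were 14551 and 10237 bp from any donor peak. The last, from 94896910 to 94897297, overlapped no peak of another list. Over the whole Toca1 list 45.5% of peaks overlapped a donor peak, 21.5% a peak after NT and 49.6% a C2C12 peak, and in the 5 windows 2, 0 and 4 of 7 did. In return, neither of the 2 peaks after NT in the windows was overlapped by a Toca1 peak (exact upper bound 84.2%), against 44.3% of that list. For the 0 of 7 Toca1 peaks on a peak after NT the upper bound was 41.0%. Both shares of the lists lay below these bounds, so no mismatch between the NT lists was shown.

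The widest donor peak at Col1a1, from 94798086 to 94798844 (759 bp, wider than 93.7% of the donor list), lay wholly inside a C2C12 peak from 94798053 to 94798857 (805 bp). A second wide donor peak, from 94819267 to 94819993 (727 bp), also lay inside a C2C12 peak, from 94819220 to 94820028 (809 bp). Their centres differed by 10 and 6 bp between the cell types, and neither site had a peak after NT or with Toca1. The widest C2C12 peak of the window, from 94870304 to 94871355 (1052 bp), was in no other list. Of the 13 donor peaks 7 were shared with C2C12 (53.8%, against 64.6% of the donor list). The 6 others included 3 at the left end of the window, from 94734220 to 94742579.

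The Col1a2 window held no peak in either NT list and was dense in both somatic cell types. With 7 donor peaks the exact upper bound was 41.0% for each NT list. The shares of the donor list, 9.73% after NT and 19.7% with Toca1, lay below it, so no deficit was shown. The 7 donor peaks of the window (192 to 564 bp) lay within 50686 bp, and 5 of them overlapped C2C12 peaks (71.4%, against 64.6% of the donor list). At the left end, donor peaks from 4407019 to 4407385 and from 4407435 to 4407998 (564 bp, the widest) were 49 bp apart. A single C2C12 peak of 1517 bp, from 4406063 to 4407579, reached across the gap and was wider than 99.8% of its list. It extended 956 bp to the left of the first donor peak, and its width was 4.13 times that of this donor peak, the largest such ratio among the 20 pairs of overlapping donor and C2C12 peaks. A further group of donor peaks, from 4455464 to 4455735, from 4456938 to 4457129 and from 4457380 to 4457704, was matched in C2C12 at the last of them only. Of the 8 C2C12 peaks of the window, 4 overlapped a donor peak (50.0%, against 48.4% of the C2C12 list). The 4 others lay from 4439372 to 4439680, from 4456291 to 4456510, from 4480711 to 4481348 and from 4537998 to 4538287. The peak from 4456291 lay between the first and second donor peaks of the group just named.

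Twist1 and Snai2 had fewer donor peaks (3 and 2) than Col1a1, Col1a2 and Prrx1 (13, 7 and 10). At Twist1 the widest donor peak, from 34642181 to 34642846 (666 bp, wider than 88.1% of the list), was in donor MEFs only. The remaining donor peaks, from 34724969 to 34725315 and from 34725730 to 34726146, were 414 bp apart and 82122 bp away. Both were matched in C2C12 from 50000 cells, by peaks from 34725021 to 34725332 and from 34725805 to 34726222. The first was also the only donor site of the 5 windows with a peak in the 1000-cell list, from 34725216 to 34725405. No peak was called at Twist1 in either NT list. With 3 donor peaks the exact upper bound was 70.8% for each, so no deficit was shown there.

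At Prrx1 the donor peaks were spread over 253708 bp, and 6 of the 10 were not found in C2C12. This was 60.0% (exact interval 26.2% to 87.8%), against 35.4% of the donor list, which lay inside the interval. These 6 included the widest donor peak of all 5 windows, from 165215397 to 165216210 (814 bp, wider than 95.7% of the list). The list after NT had no peak in the window (exact upper bound 30.8% for the 10 donor peaks, against 9.73% of the donor list). The Toca1 list had 1 peak, which overlapped 1 of the 10 donor peaks (10.0%, 0.253% to 44.5%), against 19.7% of the donor list. Both shares of the list lay inside the intervals, so no deficit was shown. The Toca1 peak, from 165333470 to 165334206 (737 bp), covered 98.4% of a donor peak from 165333537 to 165334217 (681 bp). C2C12 had a peak of 633 bp at the same place, from 165333556 to 165334188. The 3 centres lay within 39 bp of the donor centre, so this site had nearly the same position and width in donor MEFs, in C2C12 and with Toca1. Of the 8 C2C12 peaks, 4 overlapped a donor peak (50.0%, against 48.4% of the C2C12 list). Of the 4 that did not, 3 lay close together from 165151908 to 165154549.

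At Snai2 the open chromatin of donor MEFs was confined to a single place in the window, 2 peaks from 14705790 to 14706028 (239 bp) and from 14706105 to 14706493 (389 bp) with 76 bp between them. A Toca1 peak of 821 bp, from 14705403 to 14706223, and a C2C12 peak of 681 bp, from 14705459 to 14706139, each spanned the gap between them and ended inside the second. The Toca1 peak contained the first donor peak and 119 bp of the second, and the C2C12 peak contained the first and 35 bp of the second. Toca1 and C2C12 thus extended to the left of the donor peaks, and the donor peaks extended to the right. The list after NT had no peak in the window (exact upper bound 84.2% for the 2 donor peaks, against 9.73% of the donor list). With Toca1 both donor peaks were overlapped (exact lower bound 15.8%), against 19.7% of the donor list. Both shares of the list lay inside the intervals. Other C2C12 peaks lay from 14704013 to 14704292 and from 14767176 to 14767462.

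**Figure D4:**
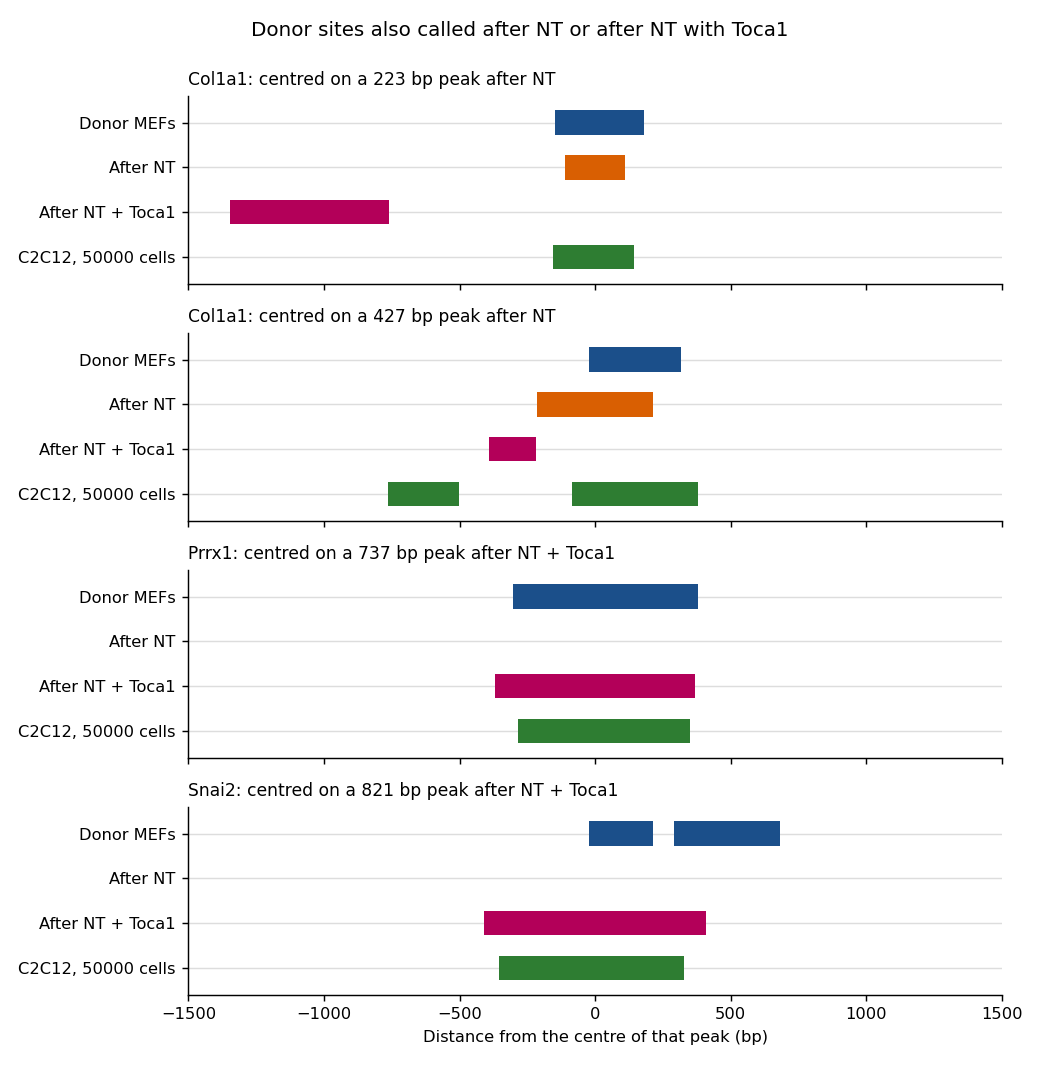
Peaks drawn to scale (bars) in 4 lists around the 4 places where a donor peak was overlapped by a peak after NT (both at Col1a1) or by a Toca1 peak (Prrx1 and Snai2), by distance in bp from the centre of that peak (x axis). At Col1a1 the Toca1 bars lie to the left of the peaks after NT without touching them. At Snai2 the Toca1 bar of 821 bp covers the first donor peak and ends inside the second.

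When overlapping peaks of all lists were joined, the 5 windows held 65 sites, of which 45 were in a single list, 15 in 2 lists and 5 in 3 lists. No site was in 4 or 5 lists. Peaks were not joined over the whole lists, so these counts have no background and are not a trait of these loci. The sites in 3 lists were the 2 at Col1a1 with a peak after NT, those of Prrx1 and Snai2 with a Toca1 peak and the Twist1 site with a 1000-cell peak, and each of them was open in donor MEFs and in C2C12 from 50000 cells. Of the single-list sites, 15 were in donor MEFs only, 15 in C2C12 from 50000 cells only, 12 in the 1000-cell C2C12 list only and 3 in the Toca1 list only. As shares of the peaks of each list in the windows these were 42.9%, 42.9%, 92.3% and 42.9%. Over the whole lists 32.9%, 46.9%, 90.1% and 43.0% of peaks were in no other list, each inside the exact interval of the windows. The 1000-cell C2C12 list overlapped the 50000-cell list at 1 of its 13 peaks (7.69%, interval 0.195% to 36.0%), against 8.48% of the whole 1000-cell list. Its widest peaks were 256 bp at Col1a1, 186 bp at Col1a2, 398 bp at Twist1, 385 bp at Prrx1 and 230 bp at Snai2, and none of these 5 overlapped a peak of another list. Of the donor peaks in the windows it overlapped 1 of 35 (2.86%, 0.0723% to 14.9%), against 6.03% of the donor list.

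Where donor MEFs and C2C12 shared a site in the windows, the centres of the peaks were mostly close. The overlap that defines a pair already limits this distance, and no value over the whole lists was computed. Over the 20 overlapping pairs the centres were a median of 33.5 bp apart, with the largest distances, 895.5 and 500 bp, at Col1a2 and Snai2 where a single C2C12 peak overlapped a pair of donor peaks. The C2C12 peak was the wider in 13 pairs and the narrower in 7. Only 18 C2C12 peaks made up these pairs. The peaks of 1517 bp at Col1a2 and 681 bp at Snai2 were each counted in 2 of the wider pairs. Over the whole lists the median widths were 392 bp for C2C12 and 399 bp for donor MEFs. The Toca1 peaks at Prrx1 (737 bp) and Snai2 (821 bp, which overlapped 2 donor peaks) were each wider than the donor peaks they overlapped, and of the pairs after NT 1 was wider and 1 narrower. Peaks of the whole Toca1 list were also wider than donor peaks, with medians of 467 and 399 bp.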

How the data were processed

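Open chromatin was measured by ATAC-seq. The deposited lists, 1 per condition, hold chromosome, start, end and a name in bp, with no score, signal or count. The submitters' processing notes name mm9, Bowtie2 2.2.1, Picard and MACS2 2.1. Parameters, and whether libraries were pooled before calling, are not given in the sources used here. Lists were assigned to conditions by their names. The 1000-cell libraries were amplified without column purification.

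Peaks overlapping the windows were extracted, with starts changed to 1-based, and lists were compared by an overlap of at least 1 bp. Overlap code was tested on simulated data. Shares have exact binomial (Clopper-Pearson) and counts exact Poisson 95% intervals. No p-value was computed. Peaks given by position were all NT and Toca1 peaks, donor and C2C12 peaks overlapping them and the widest of each list and window. Other positions were chosen after their values were seen. The windows and alternatives were chosen with earlier results of these data known. Other mesenchymal genes were not analysed, since an mm9 annotation was not used. Python 3.11.15, numpy 2.4.6, scipy 1.17.1 and matplotlib 3.10.9 were used.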

Additional observations from a re-analysis of the deposited data

How the results depend on the processing

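Of 70 recomputed values, 49 stayed within the interval of the reported share or within 1.5 times the reported count. Joining peaks up to 150 bp apart, a reciprocal overlap of at least 50% and counting peaks within 500 bp as shared moved no value past these limits, but the intervals are wide. Overlaps between the NT lists, donor peaks found in both and the joined sites were not recomputed. The donor peak from 94790126 to 94790466, overlapped after NT, lay 195 bp from a Toca1 peak. With the reciprocal overlap the share of donor peaks found with Toca1 was 2.86% (1 of 35, without both Snai2 peaks) and that of Toca1 peaks on donor peaks 14.3%. With the widest 8257 peaks of each list, which removes narrow peaks from all lists but that after NT, the windows held 7 donor, 3 Toca1, 5 C2C12 (50000 cells) and 4 C2C12 (1000 cells) peaks. The shares of donor peaks overlapped after NT and of NT peaks on donor peaks were then 0% and 0%, and that of donor peaks in C2C12 28.6%. With peaks at least 250 bp wide, 1 peak after NT and 7 of the 1000-cell list were left. Windows widened by 50 kb on each side held 5 peaks after NT, 11 Toca1 and 25 1000-cell peaks, and windows narrowed by 50 kb held 21 donor and 19 C2C12 peaks. With the 1000-cell list for C2C12, 2.86% of donor peaks were shared, against 6.03% of the donor list, which lay inside the interval of 0.0723% to 14.9%. Without the Col1a1 window, an alternative chosen after seeing the data, 22 donor, 0 NT, 2 Toca1 and 21 C2C12 peaks were left, the share of donor peaks found after NT was 0% and that of Toca1 peaks on donor peaks 100%. The share of NT peaks on donor peaks could then not be given. No paired analysis was possible because each condition has 1 list, and no library could be left out. Depth is unknown. With 2 and 7 peaks in the NT lists, differences between the loci or between the NT lists were not detectable. Causes of these moves beyond the construction of each setting were not tested.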

Other observations

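The nearest peak after NT lay 901 kb before the Twist1 window, on chromosome 12 from 33638818 to 33639253, and the nearest Toca1 peak lay 661 kb before it. For Snai2 the nearest peak after NT was 377 kb before the window and the nearest further Toca1 peak 150 kb before it. Around Prrx1 both lists had their nearest outside peak at the same place, on chromosome 1 where the peak after NT spanned 165709517 to 165709877 (361 bp) and the Toca1 peak 165709489 to 165710287 (799 bp), and both overlapped a donor peak. Around Col1a2 a Toca1 peak of 1049 bp, from 4550757 to 4551805, lay 10.8 kb after the window on a donor peak, while the nearest peak after NT was 159 kb after it. At Col1a1 the nearest outside peaks were a peak after NT spanning 94929266 to 94929415 and a Toca1 peak reaching further right, spanning 94929367 to 94929731. These overlapped each other and no donor peak.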
